A study of Homo sapiens with 9 samples.

Results

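Cancer-testis antigen genes are read here through 7 members, MAGEA1, MAGEA2B, MAGEA3, MAGEA6, MAGEA12, CSAG1 and PRAME, out of the 62700 genes of Gencode v44. They were listed by name. A TIF-Seq2 read pair was counted for a member when its 5′ end and its 3′ end lay on the strand of the gene and within 1 kb of the gene body, and pairs that start in a MAGEA gene and end in a neighbour were counted apart. TIF-Seq2 sequences the 5′ and the 3′ end of the same capped and polyadenylated RNA molecule, so each pair gives a transcription start site and a poly(A) site. The libraries come from K562, an established human line of chronic myeloid leukemia. The 2 imatinib libraries are from cells given 1 μM of imatinib, an inhibitor of the BCR-ABL kinase, for 24 h, and the 2 DMSO libraries are from vehicle controls. The members held 39368 of the read pairs, 0.256% of the total, and PRAME alone held 90.7% of these.

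Cancer-testis antigens are proteins whose genes are active in the male germ line, are kept silent by DNA methylation in most adult tissues, and are switched on again in many tumours. The MAGEA genes lie in clusters on the long arm of chromosome X in which stretches of DNA have been copied in inverted orientation, and their proteins bind RING-type ubiquitin ligases such as TRIM28. PRAME, on chromosome 22, encodes a leucine-rich protein that represses retinoic acid receptor signalling and serves as a substrate receptor of a CUL2 ubiquitin ligase.

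The libraries held 2263121 to 5135829 read pairs. All 8 erythroid and K562 markers were detected, and their summed level was 5317 to 5841 read pairs per 1000000 deposited pairs (RPM) in DMSO and 14740 to 14870 in imatinib. Of these markers 5 were higher after imatinib and none lower (edgeR quasi-likelihood test, adjusted p under 0.05), against 8.68% of all features tested called higher and 6.15% lower. None of the 5 germ cell markers DDX4, DAZL, PRM1, PRM2 and TNP1 had a read pair. Of 8 markers of other cell types 4 had a pair, with a summed level of 13.7 to 26.3 RPM.

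The bodies of MAGEA3 (chrX:152698767-152702347, + strand) and MAGEA6 (chrX:152766136-152769716, − strand) differ at 27 of 3581 bases, an identity of 99.2%. A read that covers none of these bases matches both genes equally well. The first of them lies 1202 nt after the annotated start, in the first intron of the main transcripts, and the last lies 247 nt before the annotated end. The 30 bases around the last 2 differences are shown because a read that ends closer to the poly(A) site holds none, and capitals mark the bases that differ (hg38, 5′ to 3′, chrX:152702086-152702115 and chrX:152766368-152766397).
MAGEA3: ttgttttttaCtcaAattgggaaatccatt
MAGEA6: ttgttttttaTtcaGattgggaaatccatt

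MAGEA2B (chrX:152714586-152718607, + strand) and its inverted copy MAGEA2 have the same 4022 bases. Every 68-nt window of MAGEA2B therefore has an exact copy elsewhere in hg38, against 70.5% of the windows of MAGEA6 and 69.7% of those of MAGEA3. The share was 7.21% in CSAG1, 6.50% in MAGEA12 (87.8% identical to MAGEA2B), 0.319% in PRAME and 0% in MAGEA1. The length of 68 nt is that of a 76-nt read without its UMI of 8 nt.

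The start regions of 4 MAGEA genes follow, because the read-through described further on starts in the first of them. Each holds the 30 bases before and the 30 bases from the RefSeq start (GRCh38.p14, 5′ to 3′), and capitals mark bases at which at least 5% of the pairs of that stretch start.
MAGEA2B: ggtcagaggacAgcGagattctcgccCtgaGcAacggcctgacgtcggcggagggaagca
MAGEA12: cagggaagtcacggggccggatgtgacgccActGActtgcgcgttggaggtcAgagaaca
MAGEA3: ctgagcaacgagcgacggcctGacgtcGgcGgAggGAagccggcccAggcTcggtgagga
MAGEA6: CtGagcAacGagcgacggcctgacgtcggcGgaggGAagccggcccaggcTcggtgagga
The stretches lie at chrX:152714598-152714657, chrX:152733727-152733786 and chrX:152698764-152698823 on the + strand and chrX:152769660-152769719 on the − strand. The capitals hold 66.7% of the 555 pairs that start in the MAGEA2B stretch, 74.9% of 191 in MAGEA12, 69.5% of 1021 in MAGEA3 and 75.6% of 90 in MAGEA6, so none of the 4 genes starts at a single base. In the promoter windows of RefSeq, 250 bases before to 50 after a start, the ETS core CCGGAA (or TTCCGG on the other strand) occurred 1 time in MAGEA3, 1 time in MAGEA6 and 1 time in the upstream promoter of PRAME, and in 17.2% of all 35116 windows. Neither GGGCGG nor TATAAA was found in the windows of the MAGEA genes or CSAG1 on either strand, while 45.0% and 11.5% of all windows hold them. In PRAME the window chr22:22557583-22557882 held GGGCGG 2 times. The windows of MAGEA3 and MAGEA6 held 19 CpG each, that of MAGEA2B 17, that of CSAG1 16 and the 2 of MAGEA12 9 and 15, against a median of 14. Those of PRAME held 13, 12 and 4. MAGEA1 had no entry.

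PRAME (chr22:22547701-22559361, − strand) was by far the most abundant member and ranked 31 of the 22384 genes with a read pair. It had 8886 and 12830 pairs in the DMSO libraries and 8962 and 5023 in the imatinib libraries. This is 2405 and 2498 RPM in DMSO and 2102 and 2220 in imatinib, so both imatinib libraries lay below both controls. The levels of the other members were lower by more than an order of magnitude.

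MAGEA3, whose protein with that of MAGEA6 directs TRIM28 to the kinase AMPK, had 106 and 97.2 RPM in DMSO and 51.6 and 80.9 in imatinib. MAGEA6 had 31.1 and 23.0 in DMSO and 12.9 and 16.3 in imatinib. In both genes the groups did not overlap, and imatinib was the lower group. MAGEA6 made up 22.6% and 19.1% of the pairs of the 2 genes in DMSO and 20.0% and 16.8% in imatinib, and the 95% Wilson intervals of the 4 libraries overlapped.

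MAGEA1 (chrX:153179284-153183880, + strand) had 28.7 and 34.5 RPM in DMSO and 23.0 and 41.1 in imatinib. MAGEA12 (chrX:152733757-152737669, + strand) had 28.1 and 22.8 in DMSO and 14.8 and 35.3 in imatinib. CSAG1 (chrX:152727484-152733735, − strand), which encodes a small protein of the centrosome, had 62.8 and 95.4 in DMSO and 83.7 and 57.4 in imatinib. In these 3 genes the groups overlapped, and for MAGEA1 and MAGEA12 the imatinib libraries were the lowest and the highest of the 4. Levels of different genes are counts of molecules in RPM and were not divided by a length, since a sequenced molecule gives 1 pair. Whether molecules of different length were recovered equally was not tested.

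MAGEA2B had 0 pairs in each library when both ends had to lie in its window, and so had MAGEA2, CSAG2 and CSAG3, which lie in the same copied DNA. A count of 0 allows up to 3 pairs, which is 0.584 to 1.33 RPM in a library, but only for molecules that can be placed. As no 68-nt window of MAGEA2B is unique, its own level could not be measured here.

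**Figure D1:**
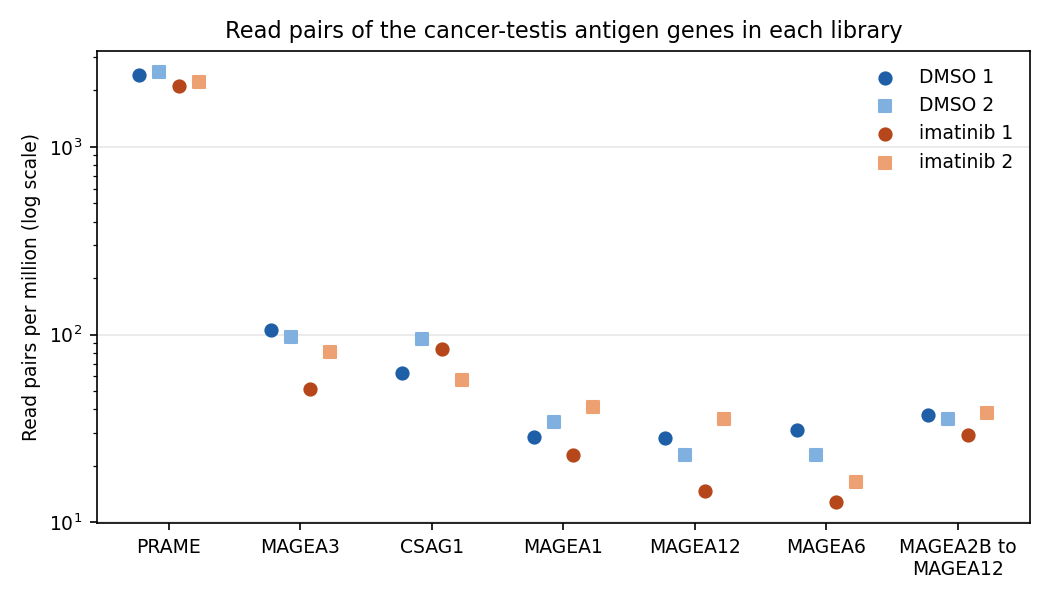
Read pairs per 1000000 deposited pairs on a log scale for 6 members and for pairs from MAGEA2B to MAGEA12, with 1 point per library (dark and light blue for DMSO 1 and 2, dark and light orange for imatinib 1 and 2). PRAME lies between 2102 and 2498 and the other features between 12.9 and 106, and MAGEA2B itself, at 0, cannot be drawn on this axis.

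To ask whether imatinib changed these genes, all 12137 features with enough pairs, genes and read-through combinations, were fitted together with edgeR's quasi-likelihood test. None of the 6 members tested passed an adjusted p of 0.05, against 14.8% of all features tested, and 1 of them, MAGEA6, had an unadjusted p under 0.05. At least those 14.8% of all features lie under that unadjusted threshold too. DESeq2 called none of the 6 members either. All 6 point estimates were below 0, and their median was −0.25 on the log2 scale, against 0.03 over all features tested. In 3 members, PRAME, MAGEA3 and MAGEA6, both imatinib libraries lay below both DMSO libraries, as they did in 26.3% of the features tested. Both imatinib libraries lay above both controls in none of the 6, against 34.1% of the features.

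The estimate of the log2 fold change was −0.98 ± 0.35 (SE) for MAGEA6 (edgeR adjusted p = 0.092) and −0.70 ± 0.32 for MAGEA3 (edgeR adjusted p = 0.17). PRAME had −0.26 ± 0.24 (edgeR adjusted p = 0.50). CSAG1, MAGEA12 and MAGEA1 had −0.23 ± 0.31, −0.12 ± 0.44 and −0.06 ± 0.36, with edgeR adjusted p-values of 0.65, 0.88 and 0.93. Over the alternative settings the log2 fold change ran from −1.14 to −0.35 for MAGEA3, from −1.24 to −0.71 for MAGEA6 and from −0.94 to 0.46 for MAGEA12. These settings include fits with a library left out, which leave 1 library in a group and hold no measure of its spread. With no filter on low counts the edgeR adjusted p was 0.039 for MAGEA6, with a negative fold change. More features were called in that fit than in the main one, and their share is not set beside it here. In bulk RNA, fewer cells that express a gene and less RNA per cell cannot be told apart. The study's methods call the replicates biological, and neither they nor the labels say how the cultures were kept apart, so the p-values measure the spread between these libraries.

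**Figure D2:**
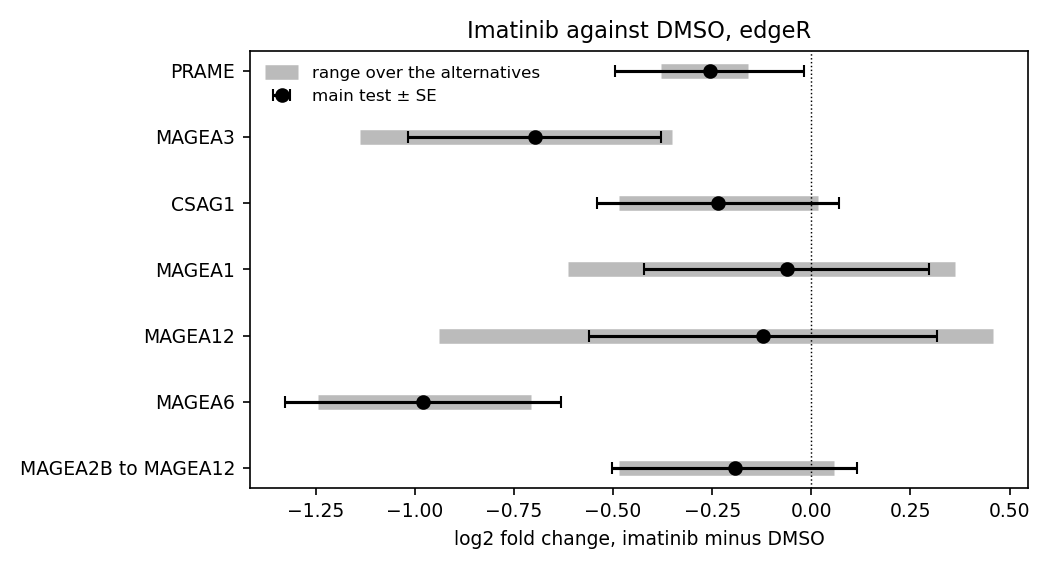
Log2 fold change of imatinib minus DMSO for 6 members and for pairs from MAGEA2B to MAGEA12. Points and bars give the edgeR estimate ± SE, and grey bars the range of the estimate over the alternative settings. The grey bars of PRAME, MAGEA3 and MAGEA6 stay below 0 and the other 4 cross it.

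Start sites were next read for each member. In MAGEA3, 78.6% of the pairs started in the annotated first exon, with the most used start at chrX:152698799, 5 nt after an annotated start, and 11.4% of the pairs. The share of first-exon starts was 76.6% and 79.2% in DMSO and 76.8% and 83.6% in imatinib. In MAGEA6 the same exon held only 22.5% of the pairs, with 13.9% and 28.0% in DMSO and 25.5% and 27% in imatinib. The remaining 252 pairs of MAGEA6 started further inside the gene, the most frequent position being chrX:152766920 with 21 pairs. The intervals of the 2 genes did not overlap in any library.

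The inner starts lay close upstream of bases that tell the copies apart. A difference lay within 68 nt of the start for 98.9% of the 277 inner pairs of MAGEA3 and for 99.2% of the 252 inner pairs of MAGEA6, while 50.4% of the positions of the last exon have such a base. In the first exon, the most used MAGEA3 start reached its first difference after 53 nt of spliced sequence, and 99.8% of the first-exon pairs did so within 68 nt. The most used first-exon start of MAGEA6, chrX:152769713, lay 82 nt from its first difference, and 42.5% of the 73 first-exon pairs had a difference within 68 nt. These distances follow the splicing of MAGEA3-201 and MAGEA6-201.

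The 3′ ends gave no such help. In 99.8% of MAGEA3 pairs and 96.9% of MAGEA6 pairs the 60 nt before the 3′ end had an exact copy elsewhere, so that these pairs were placed although the sequence at their 3′ end alone was not unique. By the study's methods both ends were aligned separately and only uniquely mapped pairs were kept, and how an end with a copy passed this step is not given in the sources used here. In the first exon of MAGEA6, 31 of 107 pairs, 29% with a Wilson interval of 21.2% to 38.2%, ended more than 2 Mb away on chromosome X, against 0.682% of all pairs and none of the 1026 pairs that start in the first exon of MAGEA3. The split of pairs between MAGEA3 and MAGEA6 was therefore measured only where the reads could be placed, and the part of this limit in their levels was not tested.

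**Figure D3:**
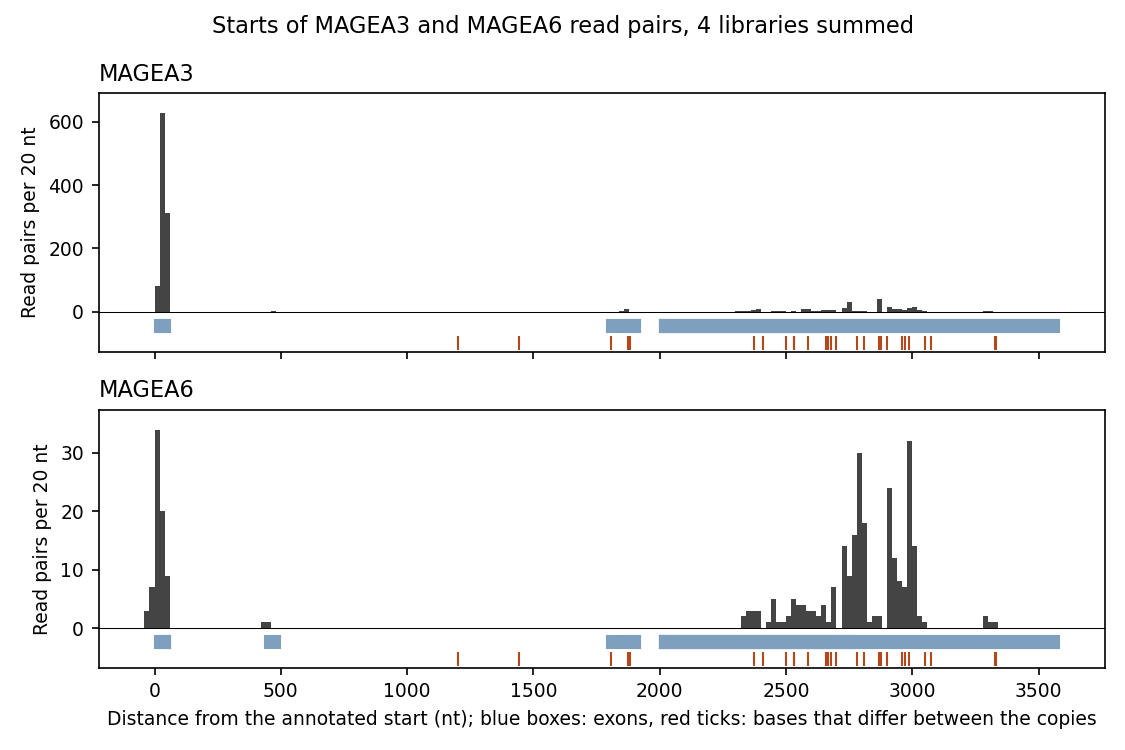
Read pairs of MAGEA3 (top) and MAGEA6 (bottom) by their start, in steps of 20 nt from the annotated start and summed over the 4 libraries; boxes are annotated exons and ticks the 27 bases that differ between the copies. MAGEA3 pairs gather in the first exon, and those of MAGEA6 mostly in the last exon, where most of the ticks lie.

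The 2 genes used the same pair of poly(A) sites. In MAGEA3, 73.8% of the pairs ended within 10 bp of chrX:152702346, 1 nt before the annotated end, and in MAGEA6 74.5% ended within 10 bp of chrX:152766137, also 1 nt before it. A second site lay further upstream, at chrX:152702280 in MAGEA3 with 23.6% of the pairs and at chrX:152766200 in MAGEA6 with 19.7%. The share of the second site in MAGEA3 was 21.9% and 30.3% in DMSO and 21.8% and 11.5% in imatinib. The upstream cluster of MAGEA3 had 86 and 148 pairs in DMSO and 48 and 21 in imatinib, with a log2 fold change of −1.32 ± 0.38 (edgeR adjusted p = 0.071), and the main cluster had −0.41 ± 0.37 (edgeR adjusted p = 0.54). The difference between the 2 clusters was not tested.

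The 30 bases that end at the main poly(A) site are shown for the 4 MAGEA genes, since the hexamer and its surroundings were shared by all of them, and for the other 2 members; capitals mark AATAAA (hg38).
MAGEA3: ttaaatctgAATAAAtaattcttcctcttc
MAGEA6: ttaaatctgAATAAAtaattcttcctcttc
MAGEA12: ttaaatctgAATAAAtaattcttcctgttc
MAGEA1: ttaaatctgAATAAAgaattcttcctgttc
CSAG1: atggaAATAAAatgaacatgttgtaaaatg
PRAME: tgttgaaAATAAAgagaagcaatgtgaagc
They lie at chrX:152702317-152702346, chrX:152766137-152766166, chrX:152737652-152737681, chrX:153183850-153183879, chrX:152727485-152727514 and chr22:22547702-22547731. The first base of the hexamer lay 20 nt before the end in each MAGEA gene, 24 nt in CSAG1 and 22 nt in PRAME. The upstream site of MAGEA3 followed an ATTAAA 19 nt before it. Few pairs had 7 or more A in the 10 nt downstream, the sign of priming inside a transcript: none in MAGEA3 and MAGEA6, 1 in MAGEA1, 1 in MAGEA12, 2 in CSAG1 and 0.762% of PRAME pairs, against 8.60% of all pairs.

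The remaining members on chromosome X had ends without such copies. Of the MAGEA1 pairs 94.7% started in the first exon, mostly at chrX:153179303 (146 pairs) and at the annotated start chrX:153179284 (113 pairs), and 79.1% ended within 10 bp of chrX:153183879. No exact copy of its start or end windows was found at 68 and 60 nt. CSAG1 used a broader start region, with 206 pairs at chrX:152733702 and 182 at chrX:152733721 and 98.0% of the pairs in the first exon. Nearly all CSAG1 molecules, 99.6%, ended within 10 bp of chrX:152727485. In MAGEA12, 76.6% of the 364 pairs started in its main first exon, the most used starts being chrX:152733779 with 52 pairs and the annotated chrX:152733757 with 40.

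CSAG1 and MAGEA12 are transcribed in opposite directions from the same stretch of DNA. Within 200 bp of the MAGEA12 start, 1205 pairs started towards CSAG1 and 295 towards MAGEA12, and the most used starts were 76 bp apart. MAGEA3 and MAGEA6 have divergent partners as well, chosen here after their values were seen. MAGEA3-DT, a long non-coding RNA, made up 117 pairs against 1026 of MAGEA3 within 200 bp, and its most used end lay 124 kb away at its annotated end. At MAGEA6, 182 pairs started in the divergent direction and 107 in the sense direction. Of the 107, 31 ended more than 2 Mb away. A base that tells the copies apart lay within 68 nt for 42.5% of the first-exon pairs of MAGEA6 and 99.8% of those of MAGEA3. With these limits the balance of the 2 directions cannot be compared between the 2 loci. Only 11.5% of the 182 ended within 1 kb of the annotated MAGEA6-DT, and the most used end, chrX:152793475 with 81 pairs, lay 1207 bp past its annotated end. MAGEA3-DT did not pass the test for imatinib (log2 fold change 0.08 ± 0.40, edgeR adjusted p = 0.92).

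Read-through between MAGEA genes was searched over 49 combinations of a MAGEA gene and a same-strand gene at most 100 kb downstream. A read pair was found in 8 combinations and at least 4 pairs in 4. Between MAGEA genes the combination with the most pairs ran from MAGEA2B to MAGEA12, 15149 bp further on, with 532 pairs. It had 138 and 183 pairs in DMSO and 124 and 87 in imatinib, or 37.3 and 35.6 RPM in DMSO and 29.1 and 38.4 in imatinib. The groups overlapped, and the log2 fold change was −0.19 ± 0.31 (edgeR adjusted p = 0.71). The mean level of 35.1 RPM was 9.46 RPM when both ends had to lie within the annotated gene bodies, with no slack.

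All 532 pairs started in the first exon of MAGEA2B. The most used starts were chrX:152714630 (152 pairs), chrX:152714624 (71 pairs) and chrX:152714612 (54 pairs), inside the MAGEA2B stretch printed above. The most used ends were chrX:152737681 (157 pairs), chrX:152737667 (123 pairs) and chrX:152737671 (90 pairs), of which the leading 2 were also the most used ends of pairs that start in MAGEA12. The leading start and end are 23.1 kb apart. The first exon of MAGEA2B has an exact copy in MAGEA2, whereas the 60 nt before the MAGEA12 end have none, so only their 3′ window was unique in the genome sequence. Of them 149, or 28.0%, started at least 68 nt before the end of the exon, where a read without its UMI does not reach the splice junction.

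Of all 899 pairs that ended at MAGEA12, 59.2% started in MAGEA2B, 31.7% in a first exon of MAGEA12 and 8.79% inside MAGEA12. The share from MAGEA2B was 56.8% and 60.8% in DMSO and 66.3% and 51.8% in imatinib, and the Wilson intervals of the DMSO libraries, 50.5% to 62.9% and 55.2% to 66.1%, overlapped those of the imatinib libraries, 59.3% to 72.7% and 44.3% to 59.2%, which did not overlap each other. A count of 3′ ends alone would thus have placed 899 molecules at MAGEA12, of which 364 started there.

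**Figure D4:**
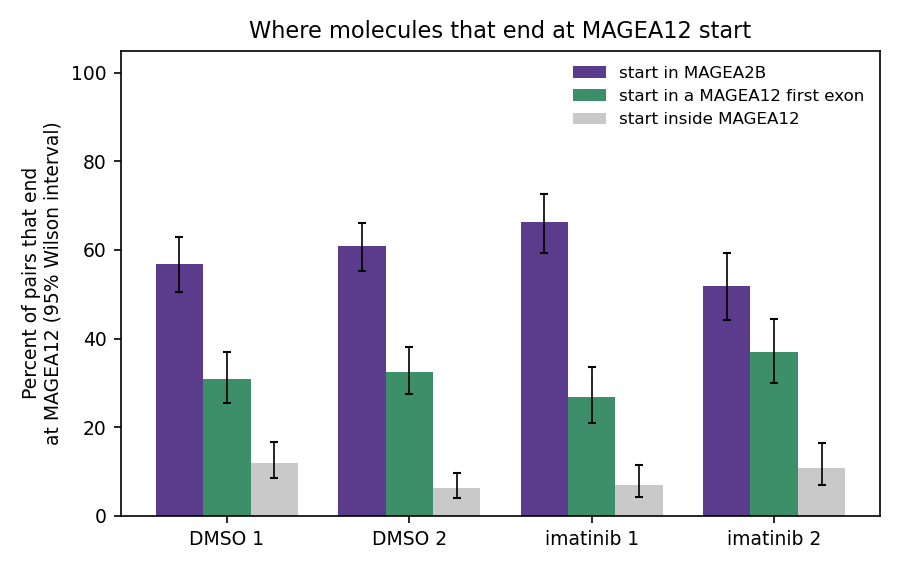
Percent of the read pairs that end within 1 kb of MAGEA12, by where they start, for each library with 95% Wilson intervals. In all 4 libraries more pairs start in MAGEA2B (51.8% to 66.3%) than in a first exon of MAGEA12.

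The deposited long-read models, made from PacBio reads of targeted amplicons and without read counts, held 3 transcripts named for MAGEA2B and MAGEA12 among 9 that start in MAGEA2B. All 9 start at chrX:152714627, and the 3 end at chrX:152737663. In these 3 a first exon of 56 nt runs to chrX:152714682 and a last exon of 1577 nt begins at chrX:152736087. The models have 2, 3 and 4 exons, with no exon between, an exon of 106 nt, or exons of 83 and 106 nt. This last exon holds the whole coding sequence of MAGEA12, chrX:152736162-152737103. Of the TIF-Seq2 pairs, 518 had both ends within 100 bp of these models. By the study's methods the amplicon primers were specific to an isoform and were designed from the TIF-Seq2 data. The outer ends of the models are therefore not independent of these pairs, and this count is no separate evidence for the ends.

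The other 6 models ran on to CSAG4, a pseudogene of the CSAG family, and end at chrX:152740961 or the next base. TIF-Seq2 gave 26 pairs from MAGEA2B to CSAG4, with 9 and 10 in DMSO and 4 and 3 in imatinib, and 12 pairs from MAGEA12 to CSAG4, with 5 and 1 in DMSO and 4 and 2 in imatinib. Neither had enough pairs to be tested. The remaining combination, with 558 pairs, ran from MAGEA2B to another entry named CSAG4 whose window overlaps that of MAGEA12 and counts mostly the same pairs, and MAGEA3 to MAGEA12 had 3 pairs in all.

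PRAME pairs started at 1983 positions. Most fell into 3 groups, set by the position of the start in an annotated first exon and not by observed splicing. The 2 upstream exons overlap, and a start inside both was counted for the exon up to chr22:22559175. Wherever they ended, 17278 pairs started in the zone up to chr22:22558971, and 12797 pairs were counted for it. Starts of both groups fell into 1 start cluster, chr22:22558987-22559322. The group with a first exon up to chr22:22559175 held 12.7% of the pairs. The group up to chr22:22558971 held 35.8%, with its most used start at chr22:22559025 (2421 pairs), and the group up to chr22:22557545 held 34%, with its most used start at chr22:22557603 (2362 pairs). A further 17.5% started outside annotated first exons, the most frequent single position being chr22:22548418 with 112 pairs. The largest start cluster outside these exons, chr22:22547800-22547986 with 1407 pairs, lay close to the 3′ end of the gene. All its starts lie less than 300 bp from the main end chr22:22547702. The study left out pairs with ends less than 300 bp apart, a limit not applied to the counts given here.

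The shares were close between libraries. The exon with the start at chr22:22557603 held 33.8% and 34.8% in DMSO and 32.6% and 35.1% in imatinib. The upstream group, by the same rule, held 11.2% and 12.8% in DMSO and 14.3% and 12.1% in imatinib. Wilson intervals of replicates of 1 group did not always overlap, so the spread between libraries was larger than counting error. All groups shared the same poly(A) site, with 98.4% to 99.1% of the pairs from the 3 exons ending within 10 bp of chr22:22547702.

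Within this site 2 positions were used most. The end chr22:22547702 held 64.2% and 53.2% of PRAME pairs in DMSO and 60.1% and 69.5% in imatinib, and chr22:22547706 held 24.0% and 31.7% in DMSO and 26.7% and 19.6% in imatinib. The groups overlapped at both positions.

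**Figure D5:**
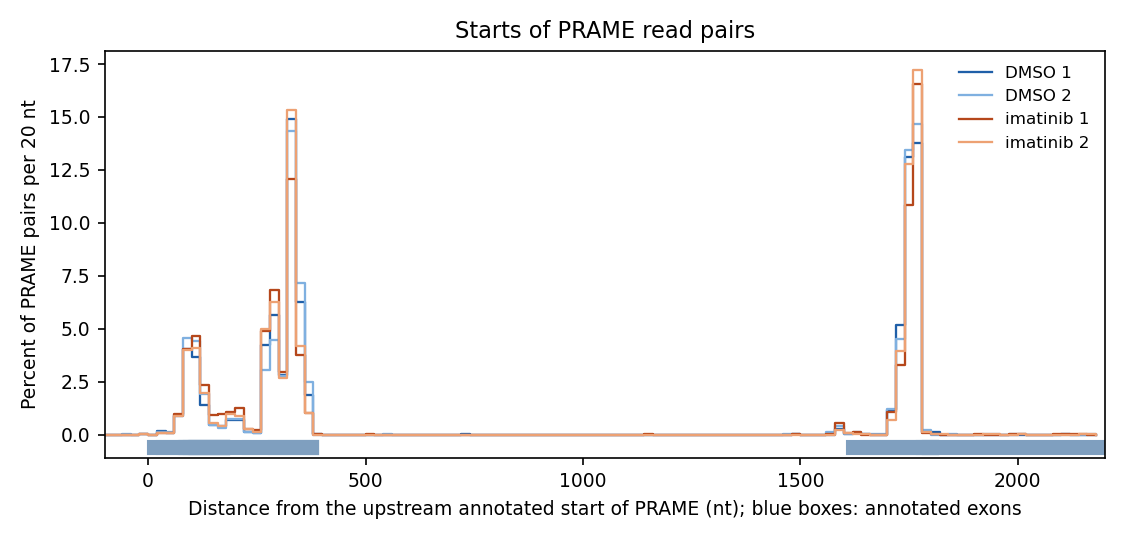
Percent of PRAME pairs that start in each step of 20 nt after the upstream annotated start, by library; boxes are annotated exons. All 4 libraries show starts in the same regions. The 3 groups, set by annotated first exons, hold 12.7%, 35.8% and 34% of the pairs. Starts of the groups with 12.7% and 35.8% fall into 1 start cluster.

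Start and end clusters were tested in the same way across the genome, to see whether single sites of a member moved. Of 32 start clusters inside the members none was called by edgeR at an adjusted p of 0.05, against 16.4% of all 15043 start clusters tested (7.38% lower and 9.07% higher after imatinib). Of 12 end clusters none was called, against 7.69% of 18646 (2.83% lower and 4.86% higher). At an unadjusted edgeR p under 0.05 were 2 of the start clusters, both at PRAME, and 2 of the end clusters, at MAGEA3 and PRAME. At least the 16.4% of all start clusters and 7.69% of all end clusters that were called also lie under that threshold. DESeq2 called none of the members' clusters of either kind. Fits without 1 of the imatinib libraries did call clusters of the members. Such fits leave 1 library in the imatinib group and hold no measure of its spread. The share of all clusters called in the same fits is not set beside them here. At PRAME the cluster around chr22:22557603 had a log2 fold change of −0.20 ± 0.23 and that around chr22:22559025 of −0.19 ± 0.22, while the MAGEA2B start cluster had −0.16 ± 0.33.

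Among the 126 other genes within a 2-fold range of its mean CPM, those with a profile nearest to PRAME over the 4 libraries were PSMB7, RPS3A and SENP3-EIF4A1, at Euclidean distances of 0.14, 0.16 and 0.17 in centred log2 CPM. PSMB7 is a proteasome subunit and RPS3A a ribosomal protein. With 4 libraries many genes can lie this near.

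Other cancer-testis antigen genes were read from lists of the same class. Of 22 further type I MAGE and CSAG genes 7 were tested and 1 was called, against 8.68% of all features called higher. MAGEA8 rose, with 18 and 23 pairs in DMSO and 77 and 31 in imatinib (log2 fold change 1.70 ± 0.36, edgeR adjusted p = 0.017). Its call was lost under DESeq2 (adjusted p = 0.053) and without either DMSO library. MAGEC2 had the most pairs of this list, 1592, with a log2 fold change of 0.31 ± 0.28. MAGEB2 followed with 936 and 0.32 ± 0.40, and the CSAG4 entry that overlaps MAGEA12 had 382 and −0.13 ± 0.43. The list had a median of 0.32 over its 7 tested genes.

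Of 70 other cancer-testis antigen genes 21 were tested, 3 were higher and 2 lower after imatinib, with a median of 0.29, while 8.68% of all features tested were called higher and 6.15% lower. XAGE2 (log2 fold change 2.62 ± 0.63), PAGE2 (1.80 ± 0.46) and TSGA10 (1.46 ± 0.37) were higher, and ACRBP, the acrosin-binding protein, was lower (−2.48 ± 0.40), with edgeR adjusted p-values of 0.026, 0.031, 0.033 and 0.0059. CTAG2, a relative of NY-ESO-1, was also lower (−1.06 ± 0.28, edgeR adjusted p = 0.037). ACRBP kept its call under all alternatives run. DESeq2 lost XAGE2, PAGE2 and TSGA10, with adjusted p-values of 0.091, 0.11 and 0.15, and leaving out either DMSO library lost TSGA10 and CTAG2. Without the first DMSO library PAGE2 was lost (adjusted p = 0.18), and without the second XAGE2 (adjusted p = 0.26). The genes with the most pairs, PAGE5 (7284), CT55 (3347) and CTCFL (3174), a paralog of the insulator protein CTCF, were not called.

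Of 12 type II MAGE genes, which are expressed in many tissues, 6 were tested and MAGED2 alone was called, against 8.68% of all features called higher. It was higher, with 69.3 and 60.2 RPM in DMSO and 224 and 184 in imatinib (log2 fold change 1.58 ± 0.27, edgeR adjusted p = 0.0077), a call lost without the second DMSO library (adjusted p = 0.079). MAGEF1 had 2066 pairs and a log2 fold change of −0.63 ± 0.27, and NSMCE3, a subunit of the SMC5/6 complex, 914 pairs and −0.41 ± 0.31. Of 15 partners of the MAGE-A and PRAME proteins 12 were tested and 2 were lower, against 6.15% of all features called lower. ELOC, the elongin C that links PRAME to CUL2, had −1.05 ± 0.26 and EED, a subunit of PRC2, −0.95 ± 0.27, with edgeR adjusted p-values of 0.030 and 0.049. The replicate block and leaving out either DMSO library lost both. TRIM28, the ligase partner of MAGE-A proteins, had 3205 pairs and 0.48 ± 0.28, and the elongin ELOB, also a CUL2 partner, 2203 pairs and 0.19 ± 0.28. No gene of DNA methylation was called among the 8 tested of 11. DNMT1, which maintains methylation, had 4995 pairs and −0.13 ± 0.24, MBD2 1454 pairs and −0.54 ± 0.32, and HELLS 567 pairs and 0.11 ± 0.37.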

How the data were processed

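TIF-Seq2 was read in 2 DMSO and 2 imatinib libraries of K562 cells. The authors deposited raw counts of read pairs per combination of 5′ and 3′ position, with UMI duplicates removed, after cutadapt 1.16 trimming and separate alignment of both ends to hg38 with STAR 2.5.3a. The long-read models were deposited as coordinates from minimap2 2.16, and 3′T-fill libraries were not used here. Libraries held 3695520, 5135829, 4263670 and 2263121 pairs.

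Pairs were summed per Gencode v44 gene, with 1000 bp of slack on each side, and per start or end cluster, of positions with at least 5 pairs joined when at most 10 bp apart. Genes and read-through combinations were tested together with edgeR 4.0.16 (quasi-likelihood, TMM, filterByExpr, Benjamini-Hochberg adjustment over all features, called at 0.05) in R 4.3.3. SE is the absolute log2 fold change over the root of F. DESeq2 1.42.0, other normalizations, filters, slacks, a replicate block and leaving out each library were the alternatives. Code was tested on simulated data. Shares carry 95% Wilson intervals, which, like the limit of 3 pairs for a count of 0, cover counting error only. With 2 against 2 libraries an exact two-sided permutation test cannot go below p = 0.333. The plan assumed that an end with an exact copy cannot be counted, which did not hold.

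The members and gene lists were chosen with earlier results of these data known. All members were named, of each list at most 5 called genes with the largest change and the 3 with the most pairs, end genes of read-through with at least 4 pairs, and the 3 nearest profiles to PRAME. By this rule HBG1, KLF1, HBE1 and HBG2 were among the called K562 markers, with log2 fold changes of 2.25, 1.51, 1.38 and 1.27, and COL1A2 and COL1A1 among the other markers with the most pairs, 48 and 20. Some markers that the rule names are not reported here.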

Additional observations from a re-analysis of the deposited data

How the results depend on the processing

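Of 104 recomputed log2 fold changes of the members and the read-through, 89 kept their direction and side of the threshold, 6 passed it and 9 changed sign. The 1800 features called became 2738 with no filter on low counts and 811 to 3986 with a library left out. The 2474 start clusters called became 1496 with DESeq2 and 1168 to 4246 with a library left out, and the 1433 end clusters 550 to 4370. Same-numbered libraries tended to deviate in opposite directions (correlation −0.38 over 7757 genes), so the numbers were not taken as pairs. The main test holds no term for this tendency, which stays in the spread it measures. With the replicate block 1143 features, 2012 start clusters and 533 end clusters were called, and none of the members. A crossed pairing, chosen after seeing the data, called 3725 features, MAGEA3 and MAGEA6 among them. The read-through level, 35.1 RPM on average, was 9.46 with no slack, which drops ends past the annotated body, and 34 to 37.1 with a library left out. With 50 bp on either side in place of 10, the median share at the main start rose from 26.9% to 70.9% and at the main end from 76.8% to 98.5%, as the window is wider. Of 12 positions, the most used start and the most used end of 6 members, 3 had an exact copy, and 5 at 20 nt. Signs changed for MAGEA1 (0.00095 with no factors, 0.0094 with no slack, −0.61 to 0.36 with a library left out), MAGEA12 (−0.94 to 0.46), CSAG1 (−0.49 to 0.016) and the read-through (0.030 with no slack, −0.48 to 0.058). With a library left out they also changed for MAGEB2 (−0.36 to 0.80), CSAG4 (−0.90 to 0.42), ELOB (−0.036 to 0.41), HELLS (−0.27 to 0.57) and MAGEA3-DT (−0.17 to 0.34, and −0.0061 with no filter). The cause was not tested. MAGEA12 has no value when pairs in several gene windows are left out. At these depths a count of 0 leaves up to 0.584 to 1.33 RPM.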
